A study of Mus musculus with 9 samples.

Results

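A set of 10 genes of the transforming growth factor-β (TGF-β), activin and bone morphogenetic protein (BMP) pathway was followed in mouse skin after loss of SPT6: the ligand genes *Tgfb1*, *Tgfb2*, *Tgfb3*, *Inhba* and *Bmp4*, the receptor genes *Tgfbr1*, *Tgfbr2* and *Bmpr1a*, and the signal transducer genes *Smad3* and *Smad7*. They were chosen by name from the pathway, with earlier results of these data known, and 10 of 10 were found among the 17943 genes of the count table. Bulk RNA-Seq had been done on 5 control mice, labelled WT, and on 4 *Supt6*-KO mice, labelled *Supt6* knockdown. All were collected on day 10 after the last injection, and by the study's results section the knockout skin was lesional. By the study's text the *Supt6*-KO mice carried K14-CreERT and *Supt6* fl/fl and received tamoxifen. The controls were *Supt6* fl/fl and were injected with corn oil alone. Floxed *Supt6* alleles were thus shared by both groups. Cre and tamoxifen were given to 1 group only, and their effects cannot be told apart from that of the deletion. K14 drives the Cre recombinase in keratinocytes of the epidermis and hair follicle, whereas whole skin was sequenced, with its dermis, vessels, muscle and immune cells. The labels name the tissue as ear and the methods as dorsal skin, and the labels give the genotype as knockdown but title the same mice KO. The study's results section places the injections in the first telogen, the resting phase of the hair cycle. Age in weeks, sex and strain of these mice were not given in the sources used here. Depth was nearly equal, at 29627341 to 30491197 estimated counts per control and 30597189 to 30967107 per *Supt6*-KO mouse.

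TGF-β and activin ligands bind pairs of type II and type I receptor kinases, which phosphorylate SMAD2 and SMAD3, while BMP ligands signal through SMAD1, SMAD5 and SMAD9. Both branches use SMAD4, and both induce the inhibitory SMADs, SMAD6 and SMAD7, as negative feedback. In skin, TGF-β restrains keratinocyte growth and drives matrix production by fibroblasts, activin is known from wound repair, and BMP signals regulate the hair cycle and keratinocyte differentiation.

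Levels are given as CPM, counts scaled to a common library size, after scaling by edgeR's TMM factors, which allow for differences in RNA composition between libraries. The groups were compared with edgeR's quasi-likelihood test over the 16426 genes with at least 10 counts in all, and a gene passed when its Benjamini-Hochberg adjusted p over all these genes was under 0.05. The factors were 1.198 to 1.315 for controls and 0.674 to 0.910 for *Supt6*-KO libraries, so every direction is relative to the bulk of the genes. Across all genes the median change was log2 -0.07 with TMM, and it moved to -0.76 with library totals instead. Changes are written below as log2 of *Supt6*-KO over control, with the standard error (SE) of the fit. *Supt6* itself (chromosome 11) had 56.6 to 96.7 CPM in the controls and 21.9 to 28.6 CPM in the *Supt6*-KO mice. The change was log2 -1.57 ± 0.18 (SE), with an edgeR adjusted p of 1.29e-05, and the lowest control lay above the highest *Supt6*-KO mouse, as the labels have it. With the length correction the fall was smaller (log2 -0.77). *Supt6* overlaps *Sdf2*, and the deleted exons cannot be seen in gene counts.

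All 10 genes passed the test. With TMM scaling 7 were lower in *Supt6*-KO skin, among them all 3 TGF-β ligand genes, *Bmp4*, *Tgfbr2*, *Smad3* and *Smad7*. The other 3, *Inhba*, *Tgfbr1* and *Bmpr1a*, were higher, but *Tgfbr1* and *Bmpr1a* turned to -0.20 each on the log2 scale with library totals and no longer passed. The background was large, since 36.8% of all genes tested passed as lower and 34.1% as higher. For 6 members all 4 *Supt6*-KO values lay under the lowest control value, where 31.8% of all genes did so, and for 2 members they lay over the highest control value, where 28.9% did. The members' median log2 fold change was -0.97. In a two-sided exact permutation test over the mice each of these 8 members gave p = 0.0159, the smallest that 5 mice against 4 allow. Groups that do not overlap always give this p, so it adds nothing to the counts above. *Tgfbr1* and *Tgfbr2*, whose groups overlapped, gave p = 0.0317 in the same permutation test.

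**Figure D1:**
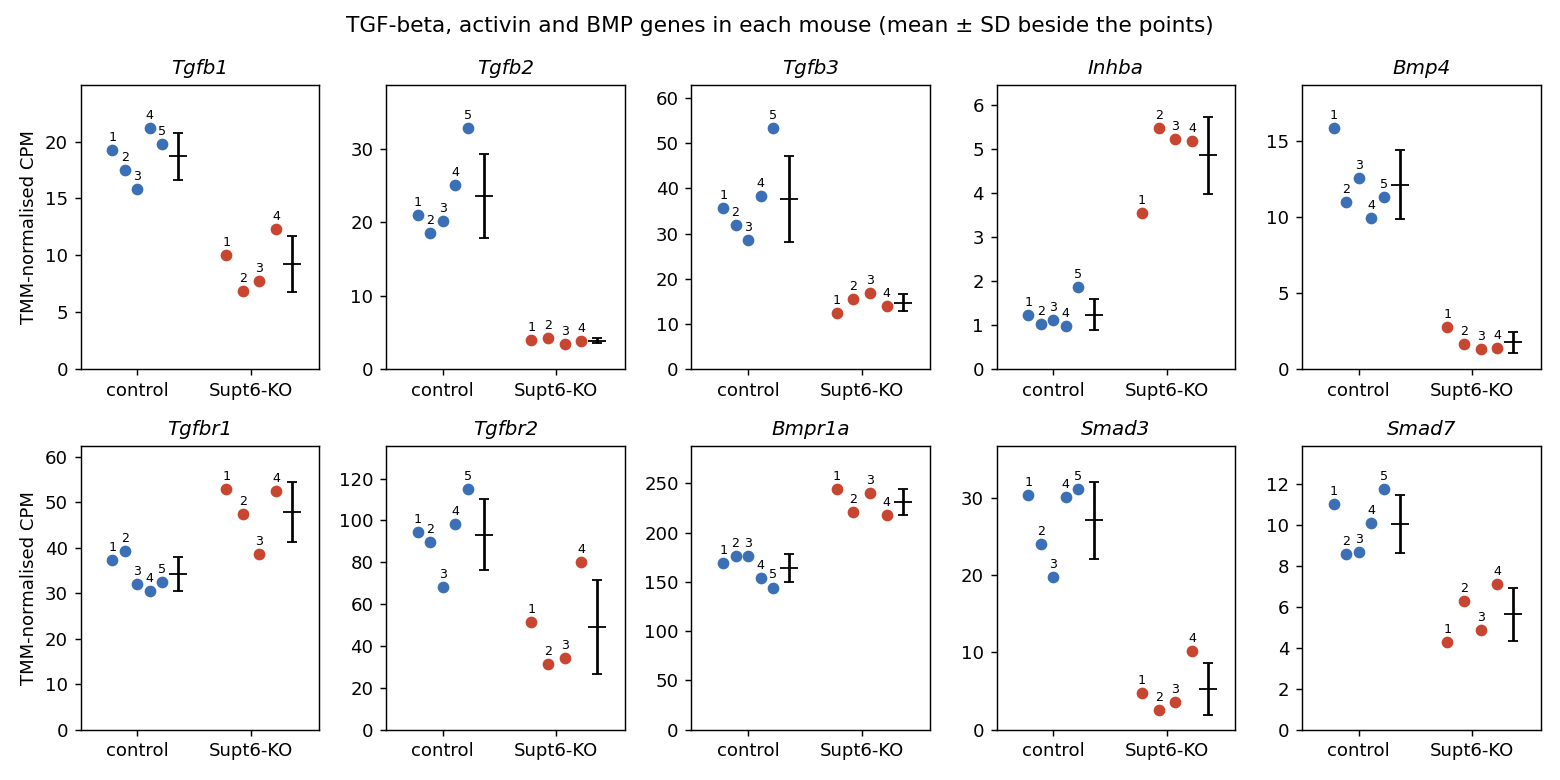
TMM-normalised CPM of each member in each mouse, with control mice in blue, *Supt6*-KO mice in red, the mouse number over each point, and the mean ± SD beside each group. The groups overlapped only for *Tgfbr1* and *Tgfbr2*, and with library totals in place of TMM the rises of *Tgfbr1* and *Bmpr1a* turned to -0.20 on the log2 scale.

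The 3 TGF-β ligand genes fell together but by different amounts. *Tgfb2* (chromosome 1, 186622787 to 186709697 in GRCm38), which encodes TGF-β2, stood at 21.0, 18.6, 20.2, 25.1 and 32.8 CPM in controls 1 to 5 and at 3.97, 4.17, 3.38 and 3.84 CPM in *Supt6*-KO mice 1 to 4. The *Supt6*-KO mice were tightly grouped far under the lowest control. The means were 23.5 ± 5.73 CPM (SD, n = 5) in controls and 3.84 ± 0.334 CPM (SD, n = 4) in *Supt6*-KO mice, a 6.12-fold fall (log2 -2.61 ± 0.19 SE, edgeR adjusted p = 9.87e-07). *Tgfb3* (chromosome 12, 86056743 to 86079041), the gene of TGF-β3, had 35.7, 32.0, 28.7, 38.3 and 53.3 CPM in the controls and 12.5, 15.5, 16.8 and 14.0 CPM in the *Supt6*-KO mice. Control 5 was the highest of its group, as it was for *Tgfb2*, and no value of 1 group reached into the other. The change was log2 -1.36 ± 0.18 (SE), with an edgeR adjusted p of 5.19e-05. *Tgfb1* (chromosome 7, 25687002 to 25705077) encodes TGF-β1, the isoform that most tissues and immune cells make. It had 19.2, 17.5, 15.8, 21.2 and 19.8 CPM in the controls against 10.0, 6.86, 7.78 and 12.3 CPM, with *Supt6*-KO mouse 4 nearest to the controls. The fall to 49.4% of the control mean was the smallest of the 3 with TMM (log2 -1.01 ± 0.18 SE, edgeR adjusted p = 0.000412), and against a minimum change of 2-fold it did not pass (adjusted p = 0.486 from edgeR's glmTreat). With the length correction the fall of *Tgfb3* (log2 -1.17) was smaller than that of *Tgfb1* (-1.23).

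*Bmp4* fell the most of all 10 members with TMM, although without *Supt6*-KO mouse 4 *Smad3* (log2 -2.90) fell more than *Bmp4* (-2.68). This gene (chromosome 14, 46383525 to 46390669) encodes a BMP ligand of the dermis and hair follicle, and its levels were 15.9, 11.01, 12.6, 9.95 and 11.4 CPM in the controls and 2.76, 1.63, 1.28 and 1.37 CPM in the *Supt6*-KO mice. These rest on 368 to 593 counts per control and 28 to 66 counts per *Supt6*-KO mouse. All 4 *Supt6*-KO mice were far under the controls, mouse 1 being the highest of them. The mean was 14.5% of the control mean, a 6.89-fold fall (log2 -2.79 ± 0.26 SE, edgeR adjusted p = 3.52e-06).

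*Inhba* went the other way. It encodes the βA subunit, 2 of which form activin A, and it lies on chromosome 13 (16004256 to 16031609). It had 1.23, 1.01, 1.11, 0.974 and 1.86 CPM in the controls, resting on only 36 to 73 counts. In the *Supt6*-KO mice it had 3.55, 5.47, 5.21 and 5.17 CPM, or 85 to 144 counts, so that even the raw counts of the groups did not overlap. The control mean was 1.24 ± 0.361 CPM (SD, n = 5) and the *Supt6*-KO mean 4.85 ± 0.877 CPM (SD, n = 4), a 3.91-fold rise (log2 1.97 ± 0.24 SE, edgeR adjusted p = 2.05e-05). It was the only member that stayed higher under each of the 20 alternatives run, from 1.26 with library totals to 2.76 with the length correction described further on.

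Promoter sequences are shown for *Tgfb2* and *Bmp4*, which had the largest falls with TMM, and for *Inhba*, which had the largest rise. RefSeq (GRCm38.p6) sequences were matched for 8 of the 10 members, without *Tgfb3* and *Smad7*. Each run below holds the 250 bases before a listed transcription start, 5′ to 3′ on the gene's strand. Capitals mark matches on either strand to the core of the SMAD-binding element (CAGAC) and to the promoter element TATAAA. The windows are chr1:186705990-186706239 on the minus strand for *Tgfb2*, chr14:46390670-46390919 on the minus strand for *Bmp4*, and chr13:16011601-16011850 on the plus strand for *Inhba*. The listed starts of *Tgfb2* and *Inhba* lie inside the annotated genes, so these windows do not precede the outermost start.
Tgfb2: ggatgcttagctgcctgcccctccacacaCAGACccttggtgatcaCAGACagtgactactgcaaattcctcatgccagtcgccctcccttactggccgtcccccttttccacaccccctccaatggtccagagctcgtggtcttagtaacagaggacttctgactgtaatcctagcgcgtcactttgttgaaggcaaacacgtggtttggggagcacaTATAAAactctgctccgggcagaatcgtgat
Bmp4: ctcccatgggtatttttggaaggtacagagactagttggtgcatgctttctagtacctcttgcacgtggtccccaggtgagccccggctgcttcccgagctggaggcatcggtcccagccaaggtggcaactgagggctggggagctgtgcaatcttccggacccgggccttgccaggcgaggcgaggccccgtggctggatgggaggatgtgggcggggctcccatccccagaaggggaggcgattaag
Inhba: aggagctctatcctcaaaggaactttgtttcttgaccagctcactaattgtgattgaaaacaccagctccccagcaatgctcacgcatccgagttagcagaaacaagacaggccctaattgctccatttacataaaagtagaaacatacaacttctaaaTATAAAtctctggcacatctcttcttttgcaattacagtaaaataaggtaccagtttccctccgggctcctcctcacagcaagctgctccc

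The *Tgfb2* window held CAGAC at 221 and at 204 bases before the start and TATAAA at 31 bases before it. In the *Inhba* window TATAAA was 91 bases before the start and CAGAC was not found, and the *Bmp4* window held neither. GC content was 53.6%, 63.2% and 43.2% in *Tgfb2*, *Bmp4* and *Inhba*. Among all 32851 promoters of this length, 42.2% held CAGAC or its reverse complement GTCTG and 12.4% held TATAAA or TTTATA. Of the 8 members listed, 3 held CAGAC (*Tgfb2*, *Tgfbr1* and *Tgfbr2*), 2 held TATAAA, and none held the AP-1 site TGACTCA (or TGAGTCA), which 4.46% of all promoters did. Letters in a window do not show that a factor binds there.

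The receptor genes did not move as 1 group. *Tgfbr2* (chromosome 9, 116087695 to 116175363) encodes the type II receptor that binds TGF-β first. It had 94.3, 89.8, 68.1, 98.3 and 115 CPM in the controls and 51.4, 31.2, 34.03 and 80.3 CPM in the *Supt6*-KO mice. *Supt6*-KO mouse 4 lay inside the control range, above control 3, and the other 3 lay under it. The change was log2 -0.92 ± 0.26 (SE), with an edgeR adjusted p of 0.00864. Without mouse 4 it was -1.27, and with the length correction it was -0.02 and did not pass (adjusted p = 0.932 from edgeR). *Tgfbr1* (chromosome 4, 47353222 to 47414926), the type I partner kinase, had 37.2, 39.3, 32.1, 30.5 and 32.4 CPM in the controls against 52.9, 47.5, 38.6 and 52.4 CPM. *Supt6*-KO mouse 3 fell between controls 1 and 2, which is the only overlap. The change was log2 0.48 ± 0.13 (SE), with an edgeR adjusted p of 0.0052 with TMM, and it was -0.20 (adjusted p = 0.307) with library totals.

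*Bmpr1a* encodes a type I BMP receptor that hair follicle differentiation depends on, and it lies on chromosome 14 (34411061 to 34503336). Its levels were 169, 177, 176, 153 and 144 CPM in the controls and 244, 221, 240 and 218 CPM in the *Supt6*-KO mice. Both groups were tight and did not overlap after TMM scaling (log2 0.49 ± 0.11 SE, edgeR adjusted p = 0.00205). Before scaling the counts were 5665 to 6447 and 4601 to 6075, which overlap, and with library totals the log2 fold change was -0.20 (adjusted p = 0.166 from edgeR). The rises of *Tgfbr1* and *Bmpr1a* therefore rest on the composition factors, and neither reached a 2-fold change with TMM.

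Both SMAD members fell. *Smad3* (chromosome 9, 63646766 to 63757994) encodes a receptor-activated SMAD of the TGF-β and activin branch. It had 30.4, 24.0, 19.8, 30.1 and 31.2 CPM in the controls and 4.72, 2.59, 3.57 and 10.2 CPM in the *Supt6*-KO mice. The *Supt6*-KO mice spread widely, with mouse 4 at 37.6% of the control mean and still under each control. Between means of 27.1 ± 4.97 CPM (SD, n = 5) and 5.27 ± 3.40 CPM (SD, n = 4) lay a 5.10-fold fall (log2 -2.35 ± 0.35 SE, edgeR adjusted p = 0.000106), and log2 was -2.90 without mouse 4. *Smad7* (chromosome 18, 75367365 to 75395935) encodes the inhibitory SMAD that blocks type I receptors. Its levels were 11.05, 8.60, 8.69, 10.1 and 11.8 CPM in the controls against 4.26, 6.28, 4.89 and 7.11 CPM. The groups came close but did not overlap, and the fall was less than 2-fold (log2 -0.83 ± 0.19 SE, edgeR adjusted p = 0.00194).

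Gene length moved with these results. Across the genes with a known length, leaving out those of low mean level, log2 changed by -2.07 for each 10-fold increase in length. Length was that of the longest coding transcript, or of the longest transcript where none was coding. The slope is a description over genes that are not independent. The members' longest transcripts ran from 2064 bases (*Bmp4*) to 8092 bases (*Tgfbr2*). When the length trend of each library was removed, 6 members were lower and 3 higher, against 33.9% and 33.8% of the 16266 genes with a length. *Tgfb2* was then at -2.04, *Tgfb3* at -1.17, *Tgfb1* at -1.23, *Bmp4* at -3.05, *Smad3* at -1.81 and *Smad7* at -0.45, all still passing. *Inhba* was at 2.76, *Bmpr1a* at 1.19 and *Tgfbr1* at 1.15. With library totals 7 members were lower and only *Inhba* was higher, where 54.6% of all genes were lower and 16.9% higher. What part length had in these results was not tested.

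**Figure D2:**
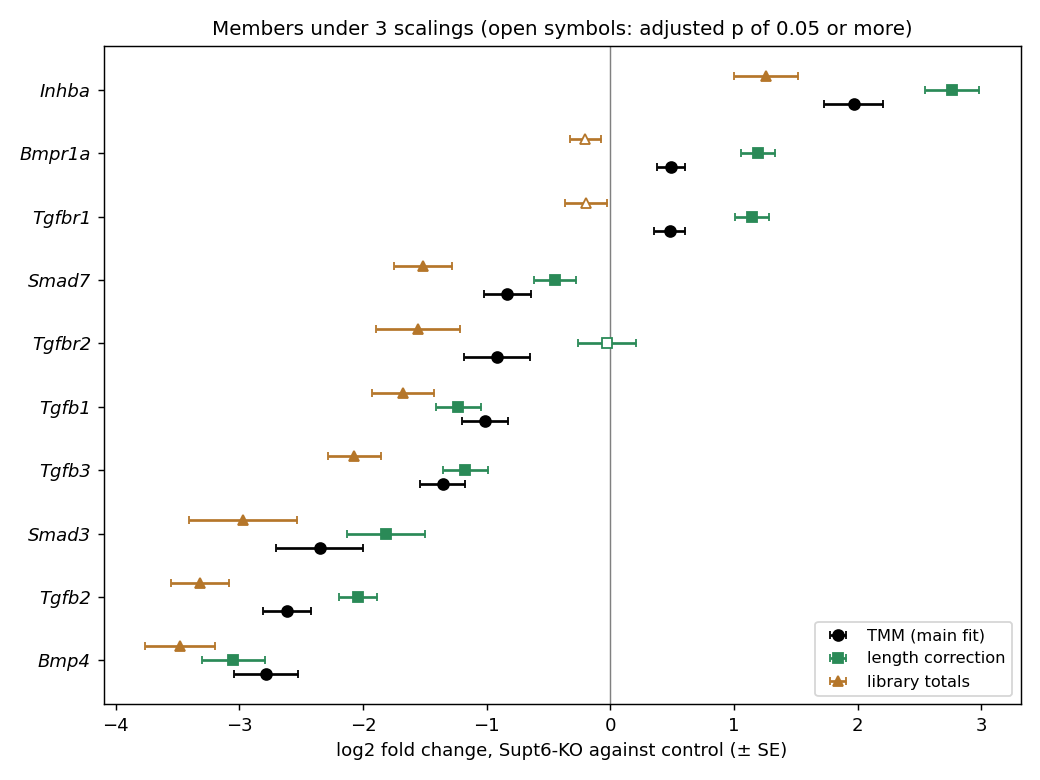
Log2 fold change of each member in *Supt6*-KO against control mice, ± its standard error, with TMM scaling (black circles), with the length correction (green squares) and with library totals (brown triangles). Open symbols did not pass the test: *Tgfbr2* with the length correction, and *Tgfbr1* and *Bmpr1a* with library totals, where both turned negative.

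Levels of different genes can be compared only per transcript length, for which the authors' TPM, which divide by transcript length, were used. TPM values were at hand for the 5 controls and *Supt6*-KO mouse 4. In the controls the order was *Bmpr1a* (49.99 ± 2.29 TPM, SD, n = 5), *Tgfbr2* (33.9 ± 10.1), *Tgfb3* (19.97 ± 7.78), *Tgfb1* (16.2 ± 3.46), *Bmp4* (11.1 ± 2.33), *Tgfbr1* (10.0 ± 1.10), *Smad3* (9.15 ± 2.62), *Tgfb2* (7.97 ± 3.02), *Smad7* (3.92 ± 1.02) and *Inhba* (0.330 ± 0.144). The ranges of neighbours overlapped at each step of this order except between *Smad7* and *Inhba*. *Tgfb1* made up 37.5 ± 3.90% of the summed TPM of the 3 TGF-β ligand genes in the controls (SD, n = 5), *Tgfb2* 17.9 ± 1.48% and *Tgfb3* 44.6 ± 3.01%. In *Supt6*-KO mouse 4 these shares were 55.4%, 6.59% and 37.97%, so *Tgfb1* was the largest share in this mouse. Mouse 4 also had the highest *Tgfb1* CPM of the 4 *Supt6*-KO mice, and its shares do not stand for the other 3. *Bmp4* dropped from the fifth place to a tie with *Tgfb2* for the lowest, at 0.63 TPM each, just under *Inhba* at 0.68 TPM. TPM carry no composition factor, and on this scale *Bmpr1a* was lower in mouse 4, at 33.5 TPM.

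The rest of the pathway was read from 91 further genes in lists by role, of which 89 were tested. *Nodal* and *Cer1*, a ligand gene of the embryo and one of its antagonists, had at most 3 counts in any mouse. Of the 89 genes, 54 (60.7%) were lower, against 36.8% of all genes, and 10 (11.2%) were higher, against 34.1%, with a median log2 fold change of -0.82. With the length correction 50 (56.2%) were lower and 14 (15.7%) higher, against 33.9% and 33.8% of all genes. With library totals 76 (85.4%) passed as lower and 1 (1.12%), *Sostdc1*, as higher, against 54.6% and 16.9% of all genes. The lists were chosen with earlier results of these data known, and these counts are a description.

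Among 12 other ligand genes tested, 8 were lower and none was higher, *Bmp8a* among them with at most 1 count in any *Supt6*-KO mouse, so that its fitted value is no measure of size. *Gdf10*, a TGF-β family ligand, fell from 9.29 ± 3.59 to 2.04 ± 0.259 CPM (SD, n = 5 and n = 4), at log2 -2.19 ± 0.28 (SE, edgeR adjusted p = 3.21e-05). The BMP ligand genes *Bmp6* and *Bmp3* fell too (log2 -2.09 and -2.07). *Bmp7*, the highest of the list in CPM over all 9 mice (*Bmp5* was higher in the controls), had 27.5 to 32.2 CPM in the controls and 30.2 to 47.3 CPM in the *Supt6*-KO mice and did not pass (log2 0.29, edgeR adjusted p = 0.0824), whereas with the length correction it passed as higher (0.54). *Bmp4* thus fell alongside most of the other BMP genes and not alongside *Bmp7*, a difference between genes that was not tested.

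Among the other receptors 9 of 10 genes were lower, and 6 with the length correction. *Acvr2b*, an activin type II receptor gene, had 4.02 to 6.29 CPM in the controls and 1.01 to 1.55 CPM in the *Supt6*-KO mice (log2 -2.17). *Eng* and *Acvrl1*, coreceptor and type I receptor genes known from blood vessels, fell as well (log2 -1.59 and -1.41). *Bmpr2*, the type II receptor gene for BMPs and the highest of the list in CPM in the controls, fell from 103 ± 16.2 to 43.9 ± 4.17 CPM (SD, n = 5 and n = 4) at log2 -1.23 (edgeR adjusted p = 1.51e-05), but was at -0.10 and did not pass with the length correction (adjusted p = 0.372). *Acvr2a*, the other activin type II receptor gene, was the only one higher with TMM (log2 fold change 0.49) and stood at -0.22 without passing when library totals were used.

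Of the other SMAD genes, *Smad6* and *Smad9* fell sharply. *Smad6*, the inhibitory SMAD gene of the BMP branch, had 6.26, 4.90, 4.48, 5.65 and 6.24 CPM in the controls and 0.877, 0.816, 0.823 and 1.11 CPM in the *Supt6*-KO mice (log2 -2.59 ± 0.20 SE, edgeR adjusted p = 1.23e-06). *Smad9*, a receptor-activated SMAD gene of the BMP branch, fell too (log2 -2.67), and *Smad4*, the shared partner, fell less (log2 -0.65). *Smad1*, *Smad2* and *Smad5* did not pass (log2 -0.06, -0.03 and -0.27), *Smad5* being highest in CPM at 102 ± 4.56 CPM in the controls (SD, n = 5). *Smad2*, which acts beside *Smad3*, had 67.5 ± 2.23 CPM in the controls (SD, n = 5) and 66.1 ± 4.58 CPM in the *Supt6*-KO mice (SD, n = 4), although with the length correction it passed as higher (0.86), as did *Smad5* (0.52). With library totals all 6 of these SMAD genes passed as lower, *Smad1* at -0.77, *Smad2* at -0.72 and *Smad5* at -0.98.

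TGF-β is stored in the matrix in a latent complex, and 12 genes of its storage and activation were examined. *Ltbp4* and *Ltbp3*, which encode latent TGF-β binding proteins, fell the most. *Ltbp4* had 147, 96.4, 106, 181 and 306 CPM in the controls and 15.5, 8.25, 10.3 and 10.3 CPM in the *Supt6*-KO mice, which is log2 -3.92 ± 0.37 (SE, edgeR adjusted p = 3.99e-06). *Ltbp3* fell from 62.5 ± 20.3 to 9.49 ± 0.276 CPM (SD, n = 5 and n = 4) at log2 -2.72 (edgeR adjusted p = 1.8e-06). *Lrrc32*, whose product holds latent TGF-β on cell surfaces, fell to 2.55 ± 0.836 CPM (SD, n = 4) at log2 -2.12. *Thbs1*, a thrombospondin gene and the highest of the list in CPM, fell too (log2 -1.31, and -0.57 with the length correction). In all, 6 of the 12 genes were lower, and 1, the integrin gene *Itgb8*, was higher with TMM and did not pass with library totals (0.33). With the length correction 5 were lower and 3 higher (*Itgb8*, *Itgav* and *Fbn1*), and with library totals 11 were lower and none higher.

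Among 14 extracellular inhibitors tested, 10 were lower and 2 were higher. *Grem1* and *Nog*, secreted BMP antagonists, fell (log2 -2.82 and -2.59), *Grem1* from only 36 to 74 counts per control to 2 to 10 counts. *Dcn*, the gene of decorin and the highest in CPM, fell too (log2 -0.75), with overlapping groups. *Sostdc1*, an antagonist of BMP and Wnt signals, rose from 24.6, 24.7, 32.3, 18.7 and 22.3 CPM to 133, 156, 180 and 76.2 CPM (log2 2.47 ± 0.24 SE, edgeR adjusted p = 4.22e-06). The lowest *Supt6*-KO mouse, mouse 4, was still over the highest control. *Fst* encodes follistatin, which binds and neutralises activin, and was chosen here after its values were seen, because *Inhba* rose. It had 24.2 to 32.6 CPM in the controls and 35.4 to 49.1 CPM in the *Supt6*-KO mice (log2 0.64, edgeR adjusted p = 0.000959), but its rise, unlike that of *Inhba*, was absent with library totals (-0.07).

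Of 12 intracellular regulators 6 were lower and 2 higher, but with the length correction 5 were lower and 5 higher. *Crebbp*, a histone acetyltransferase that SMADs recruit, fell (log2 -2.79), as did *Ski*, a SMAD corepressor (-2.41), and *Pmepa1*, an inhibitor of SMAD activation (-1.26). With the length correction these genes were at -1.72, -1.755 and -0.83, all still passing. *Ppm1a*, a phosphatase gene and the highest in CPM, did not pass with TMM (log2 0.26), passed as higher with the length correction (1.11) and passed as lower with library totals (-0.45). The higher genes were the corepressor genes *Skil* (0.84) and *Tgif2* (0.86), which were at 0.12 and 0.16 with library totals and did not pass.

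Of 14 genes known to respond to TGF-β, 7 were lower and 3 higher (*Junb*, *Tagln* and *Snai2*, none of which passed with the length correction or with library totals). *Col1a1* fell from 874 ± 642 to 70.0 ± 17.9 CPM (SD, n = 5 and n = 4) at log2 -3.64 (edgeR adjusted p = 5.35e-05), and the controls themselves ran from 356 to 1932 CPM. *Col1a2* and *Fn1*, the fibronectin gene, fell as well (log2 -2.37 and -1.66). With the length correction their falls were smaller (-1.705 and -0.68) and still passed. *Col3a1*, the highest in CPM, was at 2112 ± 941 CPM in the controls (SD, n = 5) and 1710 ± 604 CPM in the *Supt6*-KO mice (SD, n = 4), with overlapping groups and an adjusted p of 0.43 from edgeR. Of 9 BMP response genes, 5 were lower and 1 higher with TMM, and 8 were lower and none higher both with the length correction and with library totals. *Msx2*, a homeobox gene, fell from 21.6 ± 2.00 to 2.74 ± 0.703 CPM (SD, n = 5 and n = 4) at log2 -2.97 (edgeR adjusted p = 3.51e-07), and *Dlx3* and *Msx1* fell less (log2 -1.17 and -1.08). *Id3*, the highest of this list in CPM and a direct BMP target, did not pass with TMM (log2 0.30) and passed as lower with the length correction (-0.51). The 1 higher gene, *Id1*, was at 0.40 with TMM and at -0.52, passing as lower, with the length correction, and it did not pass with library totals (-0.29).

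Whole skin holds many cell types, and in bulk libraries fewer cells of a type cannot be told apart from less RNA per cell. Markers of several cell types moved with the groups, where 36.8% of all genes tested passed as lower and 34.1% as higher. The leading gene named with each list is the one with the highest CPM over all 9 mice. It was not the highest in the controls for basal keratinocytes (*Krt5* was), nor in the *Supt6*-KO mice for hair follicle (*Sox9*), neutrophils (*Retnlg*), mast cells (*Cma1*), smooth muscle and pericytes (*Rgs5*), skeletal muscle (*Mylpf*) and cartilage (*Cnmd*). Fibroblast markers (4 of 7 lower, none higher, *Col3a1* leading in CPM) summed to 4913, 4431, 3105, 6099 and 10759 CPM in the controls and to 2588, 3123, 3954 and 2081 CPM in the *Supt6*-KO mice, which overlap. Of these markers *Col1a1*, *Col1a2* and *Col3a1* are also in the TGF-β response list, and *Dcn* is among the extracellular inhibitors. Of the rest *Pdgfra* was lower (log2 -0.96), and *Dpt* (-0.21) and *Lum* (0.04) did not pass. Endothelial markers (5 of 6 lower, *Pecam1* leading) summed to 51.7 to 113 CPM against 33.1 to 43.3 CPM. Those of smooth muscle and pericytes (4 of 5 lower, *Des* leading) summed to 298 to 337 CPM against 115 to 167 CPM. *Des* alone averaged 188 CPM in the controls and 54.5 CPM in the *Supt6*-KO mice, and the sums without it overlapped. *Rgs5* did not pass (log2 -0.15). Skeletal muscle markers (5 of 6 lower, *Acta1* leading) stood at 23.9% of the control mean. The listed cartilage markers (4 of 4 tested lower, *Acan* leading, *Matn1* at 3 counts or fewer) summed to 273 to 658 CPM in the controls and 41.95 to 49.99 CPM in the *Supt6*-KO mice. *Col2a1*, which defines cartilage, had 72.9 CPM on average in the controls, and cartilage lies in the ear. Keratinocyte lists had the highest sums in each mouse.

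In the epidermal lists, basal keratinocyte markers (6 of 7 lower, *Krt14* leading) summed to 11643 to 13313 CPM in the controls and to 8402, 5801, 7014 and 14105 CPM in the *Supt6*-KO mice. Suprabasal markers (3 of 6 higher and 1 lower, *Krt10* leading) summed to 19918 to 21939 CPM in the controls and to 41557, 39435, 39121 and 19877 CPM. The low sum of mouse 4 came with *Krt10* at 7775 CPM (controls 13622 to 15479), while its *Krt1* (7264 CPM), *Ivl* (167 CPM) and *Krtdap* (2768 CPM) lay above every control. Its *Lor* (162 CPM, controls 840 to 1486) and *Sbsn* (1741 CPM, controls 2509 to 2797) lay under every control. In the other *Supt6*-KO mice *Lor* and *Sbsn* were higher than in mouse 4 but also under every control. Hair follicle markers (7 of 7 lower, *Krt71* leading) ran from 83.4 to 1112 CPM in the controls against 23.3 to 27.7 CPM. Control 5, the lowest of the controls, had *Krt71* at only 0.687 CPM, close to the 0.274 to 0.647 CPM of the *Supt6*-KO mice. T cell markers (3 of 5 lower, *Thy1* leading) stood at 46.5% of the control mean.

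Some immune and pigment cell lists were higher. Macrophage markers (5 of 6 higher, *Lyz2* leading) summed to 142 to 281 CPM in the controls and 601 to 1072 CPM in the *Supt6*-KO mice, although *Csf1r*, a defining receptor of macrophages, fell (log2 -1.83). *Lyz2* alone averaged 92.9 CPM in the controls and 641 CPM in the *Supt6*-KO mice, of mean sums of 196 and 810 CPM. The sums without *Lyz2* overlapped. Neutrophil markers (5 of 5 higher, *Mmp9* leading) summed to 15.8 to 21.98 against 39.8 to 101 CPM. One of them, *Ly6g*, rests on 4, 0, 15 and 1 counts in *Supt6*-KO mice 1 to 4 and at most 1 count in any control. Melanocyte markers (5 of 5 higher, *Dct* leading) summed to 46.7 to 65.2 against 99.7 to 177 CPM. Adipocyte markers (4 of 5 lower, *Fabp4* leading) and mast cell markers (1 of 5 higher and 1 lower, *Mcpt4* leading) had overlapping sums, at 102% and 104% of the control mean. The part of these shifts in the changes of the TGF-β, activin and BMP genes was not tested.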

How the data were processed

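Skin RNA-Seq libraries from 5 control mice and 4 *Supt6*-KO mice were used. According to the methods and the submitters' processing notes, the authors aligned paired-end reads to mm10 with Bowtie2 2.3.4.3 (the notes also list HISAT) and quantified genes with RSEM 1.3.1. The deposited values are estimated counts, not normalised between mice, together with TPM for 6 of the 9 mice. The annotation release is not given in the sources used here, nor is strand. Of the estimated counts 9% were not whole, and all were rounded. Of 17943 identifiers 17850 were matched to RefSeq genes of GRCm38, and transcript lengths came from GENCODE M21 for 17737.

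edgeR 4.0.16 (R 4.3.3) was used for TMM scaling and the quasi-likelihood test without covariates, leaving out the 1517 genes with fewer than 10 counts. The authors' methods use DESeq2, which was an alternative here (DESeq2 1.42.0). The standard error is the absolute log2 fold change divided by the root of the quasi-likelihood F. The permutation test used log2(CPM + 0.5). Named further genes are, per list, up to 3 that passed, by size of change, with non-overlapping groups and a mean of 1 CPM or more where it was higher, and the gene highest in CPM. Members and lists were chosen with earlier results of these data known. Other genes named in the text were chosen after their values were seen. The labels name each sample as a mouse. The length correction removed a lowess trend (span 0.3) on log length in each library. In simulated counts for this comparison (16303 genes), edgeR recovered 99% of genes changed 4-fold and 75.7% of those changed 2-fold, and called 6 unchanged genes. The genes changed there were few and all of higher mean level than *Inhba*, whereas far more genes passed in the data. These rates therefore do not cover genes as low as *Inhba*. Depth per mouse is given as total estimated counts, and intervals from counting were not used. Overlapping noncoding genes of *Tgfb2*, *Inhba*, *Bmp4*, *Tgfbr1*, *Tgfbr2*, *Smad3* and *Smad7* were not analysed here, and reads shared with them could not be told apart.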

Additional observations from a re-analysis of the deposited data

Results flagged for a closer look

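Of 118 groups of 4 or 5 mice examined (named genes, marker sums, library totals and TMM factors), 1 mouse stood apart in 6, and chance would give about 5.9 such groups. *Inhba* gave both of its groups: control 5 stood at 1.86 CPM against 0.974 to 1.23 CPM in the other controls, and *Supt6*-KO mouse 1 at 3.55 CPM against 5.17 to 5.47 CPM. The nearest mice of the 2 groups were thus these, and *Inhba* was still higher in the *Supt6*-KO mouse. *Fn1* stood at 264 CPM in control 5 (others 75.7 to 124). The summed suprabasal markers were at 19877 CPM in *Supt6*-KO mouse 4 (others 39121 to 41557), the neutrophil markers at 101 CPM in *Supt6*-KO mouse 3 (others 39.8 to 50.1) and the mast cell markers at 96.0 CPM in *Supt6*-KO mouse 2 (others 130 to 136). No explanation was tested beyond leaving out each mouse.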

How the results depend on the processing

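The 10 members and *Supt6* were each recomputed under 20 alternatives, and 208 of 220 values kept their direction and their side of the threshold. *Bmp4*, *Tgfb2*, *Tgfb3*, *Smad3* and *Inhba* did so in all 20. With library totals *Tgfbr1* and *Bmpr1a* reversed, both to -0.20. The member counts were then 1 higher and 7 lower, those of all genes 2771 and 8970 (5608 and 6050 with TMM), and 1 further pathway gene was higher in place of 10. In the test against a 2-fold change 1 member was higher and 4 were lower, with 2271 and 2770 of all genes and 1 and 25 of the further pathway genes. With a 2-fold change required besides adjusted p, 1 member, 3427 of all genes and 2 pathway genes were higher, and 5, 4088 and 40 were lower. These stricter rules lower counts by construction, and the cause of the shift with library totals was not tested.

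Leaving out each mouse in turn gave 3 members higher and 7 lower in all 9 fits, with 5305 to 5729 genes higher and 5669 to 6392 lower, and 9 to 12 and 50 to 55 pathway genes. Mice with the same number correlated in their deviations from the group means by 0.0126 to 0.258 over 4 pairs. The mean was 0.15, against -0.0317 over the 16 other pairs, and 1 of 4 *Supt6*-KO mice correlated best with its own number. The labels name no pairing, and the main fit used none. With the replicate block 3 members were higher and 7 lower, with 5271 and 5803 of all genes. Depth limits *Inhba* and *Bmp4* most, with 36 and 28 counts in their lowest libraries.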
